A study of Mus musculus with 18 samples.

Results

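Embryoid bodies taken after 1 day in hanging drops with leukaemia inhibitory factor (LIF) were compared with the undifferentiated embryonic stem (ES) cells they were made from, so that the cells had aggregated while LIF was kept. The comparison used 2 arrays of Day 1 + LIF bodies and 2 arrays of Day 0 ES cells, of 18 arrays in the series. On each array, labelled cDNA of the sample was hybridised against a pooled control on a pair of glass slides that carry 15360 mouse cDNA clones, each spotted in duplicate. All clones with 1 gene symbol and a value on all 4 arrays were taken, which gave 7685 clones of 15360, 2685 of them on slide 1 and 5000 on slide 2, for 5926 genes. The series also holds bodies of Days 2, 3 and 4 and bodies grown without LIF, 2 arrays for each of 9 conditions.

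Both groups were the same line, IMT11, a mouse ES line with no genetic modification that was grown on gelatin in medium with serum and LIF. The Day 0 cells were lifted from the dish with trypsin. The Day 1 + LIF bodies came from drops of 1000 cells in the same medium, were flooded with PBS and spun down, and according to the methods were also treated with trypsin. 1 array of each condition had the sample in Cy3 and the other had it in Cy5. According to the labels different RNA was used for the repeats, but which culture each array came from is not given, so the tests measure the spread between these arrays. The labels describe the pool as Day 1 to Day 4 bodies and the methods describe it as all samples, so Day 1 + LIF RNA was part of its own reference. Each group is a whole population, and fewer cells of a type cannot be told apart from less RNA per cell.

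LIF acts through its receptor and gp130 on the JAK kinases and STAT3, and holds mouse ES cells in self-renewal. Cells placed in a drop join through E-cadherin, and the outer cells of a body can then turn into primitive endoderm, which lays down a basement membrane of laminin, collagen IV, nidogen and Sparc. The inner cells keep the pluripotency factors Oct4 (Pou5f1) and Nanog for longer while LIF is present.

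The 4 arrays differed strongly in spread before any gene was compared. On slide 1 the centred log2 ratios of the clones had an SD of 2.03 on the Day 0 Cy3 array and 2.02 on the Day 1 + LIF Cy5 array, against 0.362 on Day 0 Cy5 and 0.240 on Day 1 + LIF Cy3. On slide 2 the SDs were 0.488, 0.434, 0.161 and 0.709 for Day 0 Cy3, Day 0 Cy5, Day 1 + LIF Cy3 and Day 1 + LIF Cy5. The Day 1 + LIF Cy5 array had no value at 7973 spots of slide 1, and the median ratio over all its spots was 1.64, against 0.655, 1.19 and 0.942 on Day 0 Cy3, Day 0 Cy5 and Day 1 + LIF Cy3. The wide arrays belonged to different pairs, so on slide 1 a single array carried most of each pair's difference. Each array was centred over all clones of a slide with a value on it. On slide 1 these were 3903 clones for Day 1 + LIF Cy5 and 7679 for Day 0 Cy3, so the zero points rest on different clones. The slide 1 clones that had a value on all 4 arrays lay at a median of 1.45 on Day 0 Cy3. The median difference of all genes was accordingly -0.56 on slide 1 and -0.03 on slide 2, against which slide 1 values should be read.

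**Figure D1:**
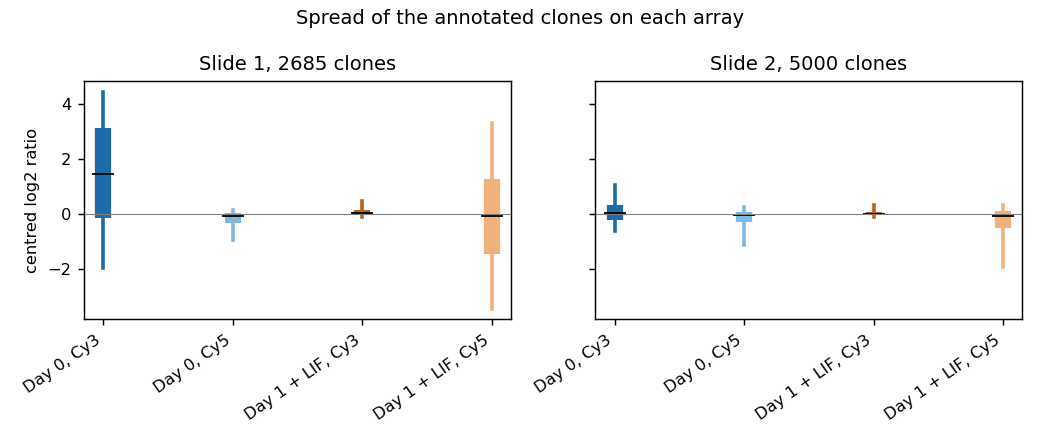
Centred log2 ratio (vertical axis) of the annotated clones on each of the 4 arrays, for slide 1 (2685 clones) and slide 2 (5000 clones). Thin lines run from the 5th to the 95th percentile, thick bars from the 25th to the 75th, and black marks are medians; Day 0 Cy3 and Day 1 + LIF Cy5 are the wide arrays on slide 1.

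The direction of the deposited ratios is not stated. The labels name the sample as the first channel, so sample over pool was taken as the likely direction for all arrays. The Day 0 Cy3 and Day 0 Cy5 arrays had opposite patterns, with Pearson's r of -0.73 over 7680 clones of slide 2, and the Day 1 + LIF arrays had r of -0.33. In contrast, the Cy5 arrays of all conditions resembled each other on slide 2, with a median r of 0.86 over 36 pairs. Cy3 arrays of different samples there had a median r of 0.43 over 36 pairs, with a lowest of -0.31 and a highest of 0.80. The study switched dyes to counter dye bias, and the part of such bias in these patterns was not tested. The direction thus remained unsettled. Values after turning the Cy3 arrays (turned) are therefore given beside the main ones for the counts, the lists and the genes whose single arrays are described. Differences below are Day 1 + LIF minus Day 0 in log2 units, the mean of the Cy3 pair and the Cy5 pair, with the standard error of limma from all 18 arrays.

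No clone passed the test. With limma and Benjamini-Hochberg adjustment, 0 of 11582 clones (0%) and 0 of 5926 genes (0%) had an adjusted p under 0.05, and the smallest adjusted p of a gene was 0.0957. At an unadjusted p under 0.05 there were 1026 clones with a positive (8.86%) and 1335 with a negative difference (11.5%), 20.4% of clones in all, and 409 and 810 genes (6.9% and 13.7%). The count stayed at 0 genes without the Day 0 Cy3 array or without the Day 1 + LIF Cy5 array, the wide ones. It was 1164 genes without the Day 0 Cy5 array and 613 without the Day 1 + LIF Cy3 array, each time leaving a wide array alone in its group. With the Cy3 arrays turned the adjusted count was again 0, with 491 genes positive (8.29%) and 158 negative (2.67%) at the unadjusted p. The difference had the same sign in the Cy3 pair and the Cy5 pair for 55.1% of genes, 1266 higher (21.4%) and 2001 lower (33.8%) in Day 1 + LIF. Both Day 1 + LIF arrays lay above both Day 0 arrays for 503 genes (8.49%) and below them for 464 (7.83%), and with the Cy3 arrays turned for 952 (16.1%) and 791 genes (13.3%). The negative differences were unevenly spread over the slides. Of 2322 genes with a clone on slide 1, 30.7% had a negative and 10.8% a positive difference at an unadjusted p under 0.05, against 2.72% and 4.38% of 3604 genes measured on slide 2 only. Counts or medians for many of the lists are therefore given for these groups of genes as well.

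The differences of the 2 pairs were related to each other on slide 2 (r = 0.45 over 7680 clones) and weakly on slide 1 (r = 0.16 over 3902 clones). Their mean also followed the profile shared by Cy5 arrays that had no part in the comparison. Against the mean of 6 such arrays, r was 0.82 on slide 2 and 0.66 on slide 1, over clones of the same slides hybridised against the same pool. The part of that shared profile in the differences was not tested. After removing each array's relation to it by loess, 0 genes passed at an adjusted p under 0.05.

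**Figure D2:**
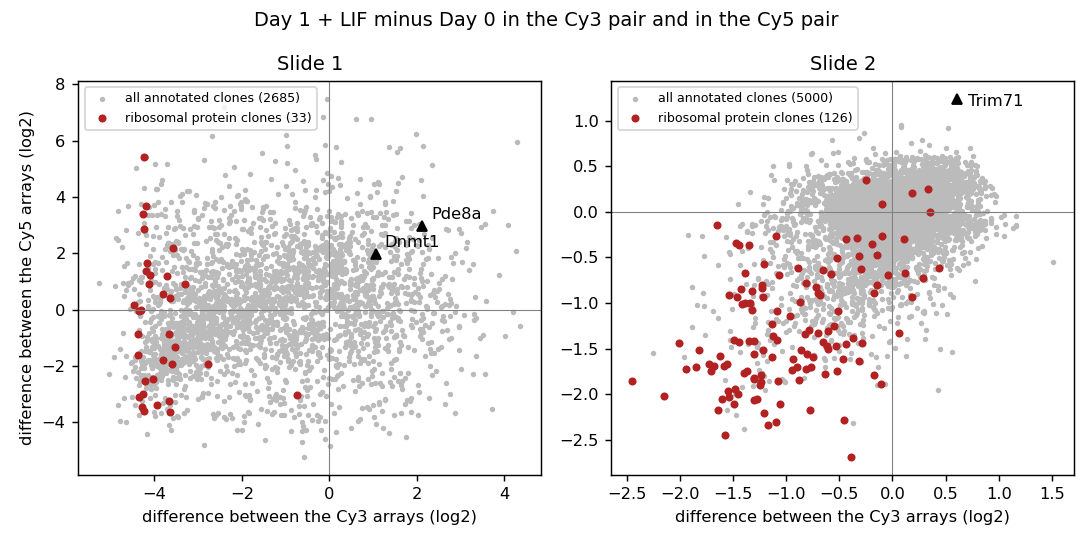
Day 1 + LIF minus Day 0 (log2) in the Cy3 pair (horizontal axis) and in the Cy5 pair (vertical axis), 1 point a clone, for slide 1 and slide 2. Grey points are annotated clones, red points are clones of cytosolic ribosomal proteins, which lie mostly lower left on slide 2 (115 of 126), and black triangles mark Dnmt1, Pde8a and Trim71.

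The genes nearest to the threshold on the positive side were Pde8a, Dnmt1 and Trim71, named here after their values were seen, and for the first 2 the duplicate spots disagreed. Pde8a, a phosphodiesterase that breaks down cyclic AMP, had log2 ratios of -0.69 and -0.41 on the Day 0 arrays (Cy3 and Cy5) and 1.43 and 2.57 on the Day 1 + LIF arrays. The difference was 2.55 ± 0.31 (SE, n = 2 arrays a group, limma adjusted p = 0.0957). Its spots read 0.02 and 2.84 on the Day 1 + LIF Cy3 array and 0.20 and -1.58 on the Day 0 Cy3 array, so the Cy3 pair of Pde8a rested on its second spot. Dnmt1, the maintenance DNA methyltransferase, had -1.15 and -1.31 at Day 0 and -0.09 and 0.65 in Day 1 + LIF bodies, a difference of 1.51 ± 0.21 (limma adjusted p = 0.140). Its spots read 0.09 and -2.72 on the Day 0 Cy5 array, and on each of the other 3 arrays they were at most 0.404 apart. Neither gene was kept where duplicates had to lie within 1 log2 unit.

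Trim71, an RNA-binding ubiquitin ligase of ES cells whose mRNA is a target of let-7, had -0.32 and -1.02 at Day 0 and 0.29 and 0.22 in Day 1 + LIF bodies, a difference of 0.92 ± 0.20 (limma adjusted p = 0.160). All its Day 1 + LIF spots, the lowest at 0.09, lay above all its Day 0 spots, the highest at -0.19. The groups did not overlap for any of these 3 genes at the level of array means. Pde8a and Dnmt1 were each measured by 1 clone of slide 1, and Trim71 by 1 clone of slide 2. With the Cy3 arrays turned the differences were 0.43 for Pde8a, 0.45 for Dnmt1 and 0.32 for Trim71.

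Their array means were also at the edge of the series. For Dnmt1 both Day 0 arrays lay below every other array with a value, the lowest of which was -0.28, but its first Day 0 Cy5 spot (0.09) did not. Trim71 showed the same order of array means, with the lowest other array at -0.07. Both Day 1 + LIF arrays of Pde8a lay above all others, the highest of which was 0.35, and both its Day 0 arrays lay below all others. Its first spots on both Day 0 arrays (0.20 and 0.05) and on Day 1 + LIF Cy3 (0.02) did not lie outside the others. Arrays of both dyes that lay outside all other arrays on the same side were uncommon at Day 0, where 21 genes (0.354%) were below and 17 genes (0.287%) above. In Day 1 + LIF bodies 2 genes (0.0337%) lay above all others, Pde8a and Ttc9c, and 2 lay below, Adam10 and Kctd4. Of the Day 0 genes below all others, Rgs3, a regulator of G-protein signalling, had -0.58 and -0.39 against a lowest other array of -0.25. Of those above, Cptp, a ceramide-1-phosphate transfer protein, had 0.60 and 0.37 against a highest other array of 0.16. Igf2, the imprinted fetal growth factor, had 0.67 and 0.08 at Day 0 against a highest other array of 0.05. Each Day 0 count includes the wide Day 0 Cy3 array and each Day 1 + LIF count the wide Cy5 array.

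On the negative side the smallest p belonged to Eef1a1, the elongation factor that brings aminoacyl-tRNA to the ribosome. Its log2 ratios were 2.72 and -1.14 on the Day 0 arrays (Cy3 and Cy5) and 0.35 and -2.98 on the Day 1 + LIF arrays. Day 1 + LIF was lower in each dye, but the groups overlapped across dyes, and the difference was -2.11 ± 0.33 (limma adjusted p = 0.140). All 17 clones of Eef1a1 had negative differences, from -4.37 to -0.92. Sod1, the cytosolic superoxide dismutase, had 1.49 and -0.69 at Day 0 and -0.08 and -2.53 in Day 1 + LIF bodies, a difference of -1.71 ± 0.29. Anxa6, a calcium-dependent membrane-binding annexin, had 0.52 and -0.55 against -0.52 and -2.38, a difference of -1.44 ± 0.29. Turned, these 3 differences were 0.26, -0.13 and -0.40, so that the first changed sign.

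Cytosolic ribosomal proteins, the structural proteins of the ribosome, lay lower in Day 1 + LIF bodies within each dye on both slides. None of 72 measured genes passed the test, and 44 (61.1%) had a negative and 0 a positive difference at an unadjusted p under 0.05, against 13.7% and 6.9% of all genes. These were 16 of 21 genes with a slide 1 clone and 28 of 51 measured on slide 2 only (54.9%, against 2.72% of all such genes), and the median difference was -1.20 against -0.07 over all genes. In 65 of 72 genes Day 1 + LIF was lower in both pairs, against 33.8% of all genes. Across dyes the groups overlapped: both Day 1 + LIF arrays lay below both Day 0 arrays in 0 of 72, against 7.83% of all genes. On slide 2, where the arrays were narrower, the 126 ribosomal clones had medians of 1.00 and -1.05 on the Day 0 arrays and -0.01 and -2.57 on the Day 1 + LIF arrays (Cy3 and Cy5). Rpl12 of the large subunit had 2.06 and -0.62 at Day 0 and -0.12 and -2.55 in Day 1 + LIF bodies, a difference of -2.05 ± 0.38 (0.13 turned). Rpsa, the small-subunit protein first described as a laminin receptor, had 2.15 and -0.89 against -0.20 and -2.44, a difference of -1.95 ± 0.37 (0.41 turned), with all 7 clones negative. The small subunit (26 genes) had a median of -1.23 and the large subunit (46 genes) one of -1.19. With the Cy3 arrays turned the median of the list was -0.06, and with the shared Cy5 profile removed it was -0.02. Many ribosomal genes have processed pseudogenes whose transcripts can bind the same clone, so single members are uncertain.

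Ribosomal protein and elongation factor mRNAs typically start with a run of pyrimidines, the 5′ terminal oligopyrimidine tract through which their translation is controlled by nutrients and growth factors. The windows around the annotated start (20 bases before to 40 after, RefSeq, GRCm38.p6) are shown for the 4 ribosomal genes of smallest p that the table holds and for Eef1a1, because this list had the lowest median of those with 9 or more genes. Capitals mark CTTTC, a stretch of C and T searched in each window on the strand of the gene.
Rpl12: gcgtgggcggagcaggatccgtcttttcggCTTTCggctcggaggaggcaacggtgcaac
Rpsa: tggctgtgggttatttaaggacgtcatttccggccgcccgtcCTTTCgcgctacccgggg
Rps15: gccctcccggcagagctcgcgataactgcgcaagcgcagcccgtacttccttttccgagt
Rpl26: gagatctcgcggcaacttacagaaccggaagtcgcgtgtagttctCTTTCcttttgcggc
Eef1a1: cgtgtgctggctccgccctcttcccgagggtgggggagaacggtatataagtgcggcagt
The windows lie on the plus strand at chr2:32961692-32961751 (Rpl12), chr9:120127746-120127805 (Rpsa), chr10:80292411-80292470 (Rps15) and chr11:68901546-68901605 (Rpl26), and on the minus strand at chr9:78481685-78481744 (Eef1a1). Of the 72 ribosomal genes, 58 had a window in the table and 24 of these (41.4%) held CTTTC, as did 302 of 4799 windows (6.29%) of all genes tested and 7.75% of all 32851 windows in the table. On the opposite strand, searched as GAAAG, the shares were 8.62% and 5.65%. The match is a description of the letters in these windows, which include 20 bases before the annotated start. No marked stretch begins at that start, so the shares do not count terminal tracts.

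The 12 genes of each direction with the largest smaller pair difference were all measured on slide 1 only. The positive ones were Chrna5, Fxyd3, Gcn1, Ttc37, Adamts10, Blnk, Ppp2r3c, Tmprss11a, A330033J07Rik, Fam168a, Pik3c2g and Scel, with differences from 1.64 to 3.61. With the Cy3 arrays turned they ran from -1.09 to 0.69, with a median of 0.03. Chrna5, a nicotinic acetylcholine receptor subunit, had -3.75 and 0.02 at Day 0 and -0.01 and 3.51 in Day 1 + LIF bodies, a difference of 3.61 ± 0.96. Fxyd3, a regulator of the sodium pump, had -2.68 and 0.09 against -0.02 and 2.96, a difference of 2.77 ± 0.79. Over the 12 genes the Day 0 Cy5 values lay between -0.16 and 0.17 and the Day 1 + LIF Cy3 values between -0.10 and 0.15, so that Day 0 Cy3 (at most -1.56) and Day 1 + LIF Cy5 (at least 1.43) made the differences.

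The negative ones were Cdk1, Ctsz, Jtb, Bpnt1, Mif, Ddx10, Pomp, Slc2a3, AU021092, Phax, Fam76b and Mrpl49, with differences from -3.94 to -3.08, and from -0.96 to 0.70 turned. Cdk1, the kinase that drives entry into mitosis, had 4.02 and -0.31 at Day 0 and 0.02 and -3.95 in Day 1 + LIF bodies, a difference of -3.82 ± 0.93. Mif, a secreted cytokine, had 3.97 and -0.17 against -0.47 and -3.56, a difference of -3.91 ± 0.79. Slc2a3, a glucose transporter, had 3.39 and -0.24 against -0.41 and -3.55, a difference of -3.56 ± 0.88. Here Day 0 Cy3 was at least 2.94 and Day 1 + LIF Cy5 at most -3.01. The adjusted p of these 24 genes ran from 0.160 to 0.168.

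**Figure D3:**
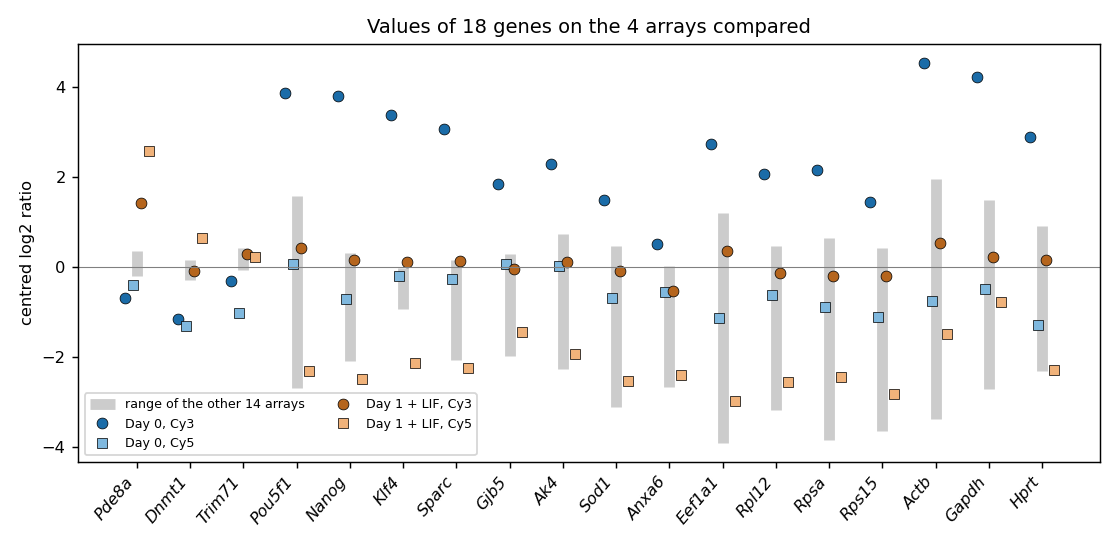
Centred log2 ratio (vertical axis) of 18 genes on the 4 arrays compared (circles Cy3, squares Cy5; blue Day 0, brown Day 1 + LIF), with grey bars for the range of the other 14 arrays. Pde8a, Dnmt1 and Trim71 have both Day 1 + LIF values above both Day 0 values; the other genes have a high Day 0 Cy3 value and, mostly, a low Day 1 + LIF Cy5 value.

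Among pluripotency genes 21 of 45 listed were measured, and 0 passed. At an unadjusted p under 0.05 there were 4 negative (Pou5f1, Nanog, Klf4 and Mkrn1) and 1 positive (Fgfr2), or 19% and 4.76% against 13.7% and 6.9% of all genes. Of the 4, 3 were among the 9 genes with a slide 1 clone. The median difference was -0.38, or 0.03 with the Cy3 arrays turned. Pou5f1, the core pluripotency factor, had 3.85 and 0.08 at Day 0 and 0.43 and -2.31 in Day 1 + LIF bodies, a difference of -2.91 ± 0.77 (limma adjusted p = 0.160). Nanog, a homeobox factor of the same network, had 3.80 and -0.71 against 0.16 and -2.49, a difference of -2.71 ± 0.75. Day 1 + LIF was lower in each dye for both, but across dyes the groups overlapped. Both were measured by 1 clone of slide 1, and turned their differences were 0.52 and 0.93. Members on slide 2 had smaller differences, with -0.66 ± 0.54 for Dppa5a, an RNA-binding protein of ES cells, and -0.21 ± 0.41 for Dppa3, also called Stella. Ratios to a pool give no absolute level, so the ES cell label could not be checked here. A value on all 4 arrays is no measure of expression: 4 of 11 ES cell markers had one, as did 5 of 6 fibroblast markers.

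In the LIF and STAT3 pathway 17 of 35 listed genes were measured and 0 passed, with a median difference of -0.32 (0.01 turned). At an unadjusted p under 0.05 there were 3 positive (17.6%) and 2 negative (11.8%), against 6.9% and 13.7% of all genes. Of these, 2 positive and 2 negative were among the 8 genes with a slide 1 clone. The ligand, receptor and transducer genes had a median of -0.04 over 11 genes. Among them gp130 (Il6st) was at -0.29 ± 0.16, Jak1 at 0.35 ± 0.20, Jak2 at 1.12 ± 0.48 and Stat3 at 0.35 ± 0.16. The targets and inhibitors had a median of -0.63 over 6 genes. Klf4, a STAT3 target that sustains self-renewal, had 3.36 and -0.20 at Day 0 and 0.11 and -2.13 in Day 1 + LIF bodies, a difference of -2.59 ± 0.72 (0.67 turned) from 2 clones of slide 1. Pias1, a SUMO ligase that inhibits STAT signalling, was at -1.43 ± 0.36 (-0.08 turned), and Myc at -0.79 ± 0.60. Socs3, the feedback inhibitor most used as a readout of LIF, and the receptor Lifr were not among the genes with a value on all 4 arrays.

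Genes of cell contact were of interest because the cells had just aggregated. Of the cell-cell junction genes 19 of 31 were measured, 0 passed, and 6 were negative (31.6%, against 13.7% of all genes) and 0 positive at an unadjusted p under 0.05, with a median of -0.36 (0.23 turned). All 6 were among the 10 genes with a slide 1 clone, and the 9 genes measured on slide 2 only had a median of -0.08. E-cadherin (Cdh1), the main adhesion molecule of ES cells, was at -0.35 ± 0.25. Gjb5, a gap junction connexin, had 1.85 and 0.07 at Day 0 and -0.05 and -1.45 in Day 1 + LIF bodies, a difference of -1.71 ± 0.31, without overlap between the groups. With the Cy3 arrays turned the groups of Gjb5 overlapped and the difference was 0.19, and with the shared Cy5 profile removed it was 0.32. Afdn, which ties nectins to actin, was at -1.91 ± 0.50 (0.55 turned). For integrins and focal adhesions 19 of 30 were measured, with a median of -0.41 (0.11 turned). At that p 4 were negative (21.1%, against 13.7% of all genes) and 0 positive. All 4 were among the 7 genes with a slide 1 clone (57.1%, against 30.7% of all such genes). Integrin β1 (Itgb1) was at -0.54 ± 0.50, the dystroglycan Dag1 at -1.66 ± 0.42 (0.11 turned) and the kindlin Fermt2, which activates integrins, at -1.36 ± 0.34 (0.12 turned).

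Basement membrane genes, products of the endoderm that forms around a body, had a median of -0.40 over 16 measured genes (0.07 turned), with 0 passing and 4 negative (25%, against 13.7% of all genes) and 0 positive at an unadjusted p under 0.05. All 4 were among the 7 genes with a slide 1 clone, and the 9 others had a median of -0.15. Sparc, a collagen-binding glycoprotein of that membrane, had 3.06 and -0.26 at Day 0 and 0.13 and -2.24 in Day 1 + LIF bodies. Its difference was -2.45 ± 0.57 (0.48 turned), and its 3 clones ranged from -3.76 to -1.26. Nid1, the linker of laminin and collagen IV, was at -2.09 ± 0.50 (0.09 turned), while Col4a1 was at -0.15 ± 0.16 and Col4a2 at 0.01 ± 0.29. Of the laminin chains α1 (Lama1) was at -1.72 ± 0.90 (2.14 turned) and β1 (Lamb1) at 0.41 ± 0.27 (-0.22 turned). Of the other extraembryonic endoderm genes 9 of 29 were measured. Gata4, the endoderm transcription factor, had -0.44 and 0.09 at Day 0 and -0.01 and 0.32 in Day 1 + LIF bodies, a difference of 0.33 ± 0.17 (-0.09 turned). Cited2, a transcriptional cofactor, was at 2.55 ± 0.70 (-1.32 turned) and the keratin Krt8 at -1.50 ± 0.46 (0.87 turned), both from slide 1. The median over these 9 genes was -0.19, and it changed sign with the Cy3 arrays turned (0.46).

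Markers of other lineages were sparse. Of the primitive ectoderm and mesendoderm list 5 of 20 genes had values, with Otx2 at 0.21 ± 0.22, Pou3f1, also called Oct6, at -1.39 ± 0.55 and Hand1 at 1.07 ± 0.45. In the neurectoderm list 3 of 15 were measured, the intermediate filament Nes at -1.44 ± 0.48 and the tau gene Mapt at 0.42 ± 0.33 among them, and in the trophoblast list 4 of 13, with Plac1 at -0.45 ± 0.17. The mesoderm markers T, Mixl1 and Kdr had no value on all 4 arrays. The 11 measured fibroblast genes had a median of 0.08 (-0.08 turned), with Col1a1, the fibrillar collagen chain, at 0.60 ± 0.16 and the galectin Lgals1 at -1.72 ± 0.63, 1 of each sign at an unadjusted p under 0.05. The 6 erythroid genes also had a median of 0.08 (-0.08 turned), and none had an unadjusted p under 0.05. Alas2, the erythroid enzyme of haem synthesis, was at 0.41 ± 0.24 and the factor Gata1 at -0.72 ± 0.92.

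Several lists of housekeeping functions had medians below that of all genes, and lower ones among their genes with a slide 1 clone. All genes with a slide 1 clone had a median of -0.44, and all those measured on slide 2 only had -0.02. Chaperones had a median of -1.05 over 39 measured genes, with 16 negative (41%, against 13.7% of all genes) and 0 positive at an unadjusted p under 0.05, 12 of them among the 27 genes with a slide 1 clone. Dnaja2, a co-chaperone of Hsp70, was at -1.73 ± 0.38 and Hspa4 at -2.64 ± 0.70. Glycolysis and pentose phosphate enzymes had a median of -1.03 over 17 genes, with the aldolase Aldoa at -3.55 ± 0.85. It was -2.14 over the 11 genes with a slide 1 clone and -0.17 over the 6 measured on slide 2 only. Hypoxia response genes had a median of -1.03 over 14 genes, with the adenylate kinase Ak4 at -2.06 ± 0.38 and the glucose transporter Slc2a1 at -3.41 ± 1.02. Their median was -1.58 over the 9 genes with a slide 1 clone and -0.16 over the 5 measured on slide 2 only. Oxidative phosphorylation had -0.55 over 60 genes, with cytochrome c (Cycs) at -3.06 ± 0.80 and Ndufb7 of complex I at -0.74 ± 0.21. At that p 19 were negative (31.7%, against 13.7% of all genes) and 0 positive. Of the 19, 13 were among the 21 genes with a slide 1 clone (61.9%, against 30.7% of all such genes). Turned, the medians of these 4 whole lists became 0.71, 0.89, 0.71 and 0.07.

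Translation factors had a median of -0.54 over 51 genes (0.23 turned), and Eif3k, a subunit of initiation factor 3, had 1.81 and 0.18 at Day 0 and -0.25 and -1.63 in Day 1 + LIF bodies, a difference of -1.94 ± 0.35 without overlap. Turned, its groups overlapped and the difference was 0.12, and with the shared Cy5 profile removed it was 0.14. The hnRNP, SR and spliceosome proteins had -0.51 over 51 genes (0.17 turned), with Hnrnpa3 at -1.73 ± 0.36 and Lsm2 at -2.58 ± 0.63. Mitochondrial ribosomal proteins had -0.40 over 39 genes (0.32 turned), with Mrps18b at -3.17 ± 0.89. At an unadjusted p under 0.05, 16 were negative (41%, against 13.7% of all genes) and 2 positive (5.13%, against 6.9%). Of the 16, 15 were among the 19 genes with a slide 1 clone (78.9%, against 30.7% of all such genes). The proteasome had -0.39 over 34 genes (0.14 turned), with Psmb7 of the core particle at -3.38 ± 0.86 and Psma4 at -1.94 ± 0.53. No member of these lists passed the test. Genes with a slide 1 clone had medians of -1.03 for translation factors, -1.15 for spliceosome proteins and -1.88 for the proteasome. Those measured on slide 2 only had -0.15, -0.32 and 0.002.

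Of the cytoskeleton, actins and their regulators had a median of -0.67 over 32 genes (0.52 turned), with the actin-severing cofilin Cfl1 at -2.14 ± 0.57 and the myosin light chain Myl12b at -2.08 ± 0.57. Tubulins and motors had -0.68 over 18 genes (0.50 turned), with the dynein light chains Dynlrb1 at -1.12 ± 0.30 and Dynll2 at -2.04 ± 0.69. Genes with a slide 1 clone had medians of -1.61 for the actin list and -1.12 for the tubulin list. Those measured on slide 2 only had -0.38 and -0.17. Cell cycle genes had a median of -0.35 over 48 genes (0.21 turned). At an unadjusted p under 0.05, 14 were negative (29.2%, against 13.7% of all genes) and 4 positive (8.33%, against 6.9%). All 14 were among the 24 genes with a slide 1 clone (58.3%, against 30.7% of all such genes). Within them the replication genes had -0.53 over 22 genes, with DNA ligase I (Lig1) at -2.75 ± 0.78, and the cyclins, kinases and inhibitors -0.19 over 26 genes, with the CDK inhibitor Cdkn1b at 1.99 ± 0.59. Immediate early and stress genes had -0.17 over 10 genes (0.05 turned), with the haem oxygenase Hmox1 at -2.52 ± 0.67 and the antiproliferative Btg1 at -0.59 ± 0.30. The 5 measured p53 targets had a median of -0.79 (0.47 turned), with Perp at -2.26 ± 0.79 and the exonuclease Aen at -0.79 ± 0.32. Imprinted genes had -0.22 over 11 genes (0.16 turned), with Grb10 at -2.89 ± 0.99 and Igf2 at -0.42 ± 0.21. The 5 measured genes of cholesterol synthesis had -0.22 (0.58 turned), with Scd2 at -1.18 ± 1.41 and Msmo1 at -0.33 ± 0.39.

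**Figure D4:**
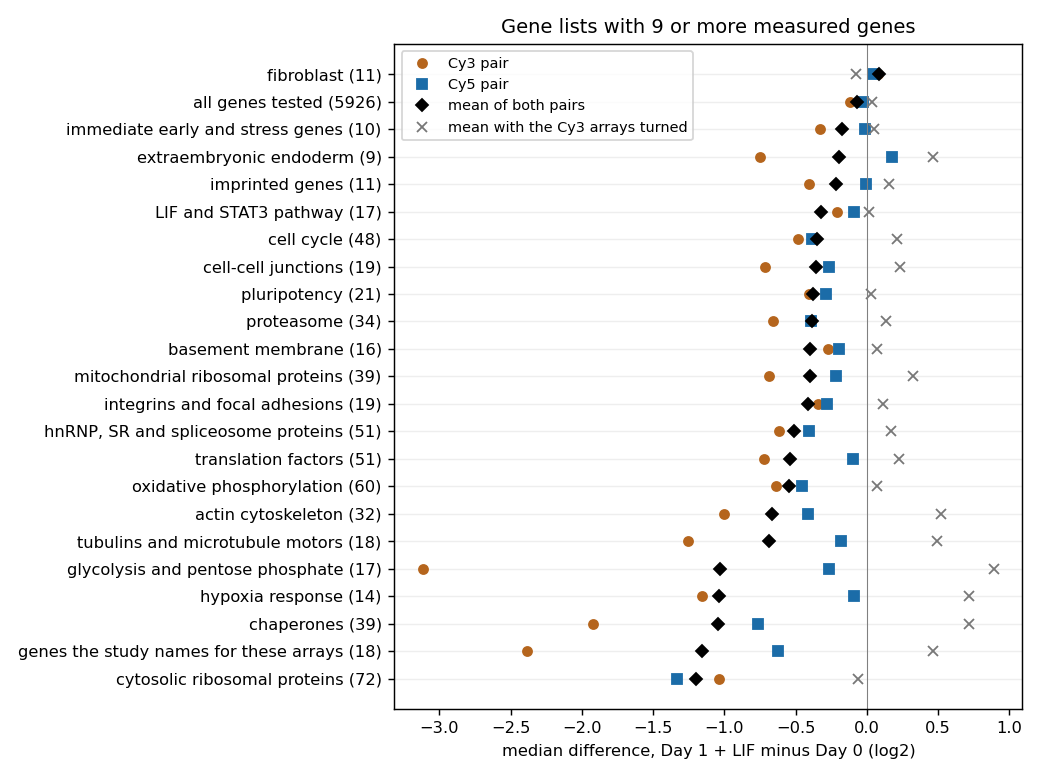
Median difference, Day 1 + LIF minus Day 0 (log2, horizontal axis), of each gene list with 9 or more measured genes (number in brackets), in the Cy3 pair (circles), the Cy5 pair (squares), their mean (diamonds) and the mean with the Cy3 arrays turned (crosses). Cytosolic ribosomal proteins lie lowest, at -1.20, and come to -0.06 when turned; most other lists change sign.

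The genes that the study names for these arrays were partly chosen on these samples, so their direction here is not independent evidence. The study also tested array genes by RT-PCR on several sets of bodies, and those results are not used here. Of 21 listed, 18 were measured, 0 passed, 18 had a negative difference and 9 (50%) had an unadjusted p under 0.05. Over all genes, 3414 of 5926 had a negative difference, and 13.7% had a negative one at that p. Of the 9, 7 were among the 12 genes with a slide 1 clone (58.3%, against 30.7% of all such genes). The other 2 were among the 6 genes measured on slide 2 only (33.3%, against 2.72% of all such genes). The median of the list was -1.16, or 0.46 with the Cy3 arrays turned. The list includes the control genes Actb, Gapdh and Hprt, without which 6 of 15 genes had an unadjusted p under 0.05 and the median was -0.93. Among the ribosomal genes Rpl8 was at -2.41 ± 0.48, Rps2 at -0.93 ± 0.31 and Rplp1 at -0.85 ± 0.49. Among the chaperones Hspa8 was at -1.70 ± 0.47 and Hsp90aa1 at -1.56 ± 0.78. Among metabolic genes ferritin light chain (Ftl1) was at -2.47 ± 0.61, Cox4i1 at -1.47 ± 0.47, Atp5b at -0.61 ± 0.25 and transketolase (Tkt) at -0.37 ± 0.18. Dppa5a is given with the pluripotency genes, and the remaining members apart from the control genes were Eif4a1 at -1.25 ± 0.95, Tubb5 at -1.07 ± 0.63, Ssr2 at -0.57 ± 0.73, Hnrnpk at -0.51 ± 0.31 and Sgce at -0.33 ± 0.26.

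The 3 control genes counted in that list had negative differences too, with no adjusted p under 0.05. They are common housekeeping genes, but the paper found their expression to change unpredictably as the cells differentiated. It also reports Actb and Gapdh as differentially regulated on its arrays, and it replaced them with another housekeeping gene. These 3 genes are therefore not an unchanged reference. Actb had 4.53 and -0.76 at Day 0 and 0.53 and -1.49 in Day 1 + LIF bodies, a difference of -2.36 ± 0.83. Gapdh was at -2.14 ± 0.83 and Hprt at -1.86 ± 0.56. In each of them the Day 0 Cy3 array was the highest of the 4, and turned the differences were 1.64, 1.86 and 0.86.

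The study required a change of at least 2-fold, and here 782 clones (6.75% of 11582) were at least 2-fold apart between every spot of the Day 1 + LIF array and every spot of the Day 0 array in both dyes. Of these, 153 (1.32%) were higher and 629 (5.43%) lower in Day 1 + LIF bodies. All 153 higher clones were on slide 1. Slide 2 held 107 clones, all lower, and 73 of them had a symbol and came from 51 genes. Eef1a1 had 6 of these clones, Rpsa 5, Rpl7 4, and Rpl10 and Rps3a1 3 each, and the mRNA-binding ubiquitin ligase Mkrn1, Sod1 and the small heat shock protein Hspb1 had 1 each. The spots of 1 array are not repeats of the condition. After scaling the arrays to equal spread the count was 150 clones, 143 higher and 7 lower, so the split between higher and lower turned over with the spread of the arrays.

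Day 1 bodies made without LIF were the nearest other condition and differed from these bodies in the medium. Between Day 1 + LIF and Day 1 - LIF bodies 0 of 11582 clones passed in limma (0%), with 274 positive (2.37%) and 54 negative (0.466%) at an unadjusted p under 0.05. With the Cy3 arrays turned 0 passed, with 137 positive and 21 negative at that p. Pde8a had -0.20 and 0.31 without LIF against 1.43 and 2.57 with it, a difference of 1.95 ± 0.31 (limma adjusted p = 0.788), subject to the same disagreement between its spots. The unnamed transcript A730082K24Rik was at 1.51 ± 0.30 and butyrylcholinesterase (Bche) at 1.03 ± 0.27. On the negative side Reep5, which shapes the endoplasmic reticulum, was at -0.46 ± 0.16, the WD-repeat gene Wdr6 at -0.45 ± 0.17 and the replication repair factor Tonsl at -0.46 ± 0.18. Eef1a1 had -0.42 and -3.67 without LIF against 0.35 and -2.98 with it, and Dnmt1 had -0.28 and -0.03 against -0.09 and 0.65. Both comparisons share the Day 1 + LIF arrays.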

How the data were processed

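Cytoplasmic RNA, as the labels name it, was labelled with Cy3 or Cy5. The authors quantified spots in ImaGene and scaled either channel to its mean. What they deposited is a linear ratio per spot, with the direction not stated. Their scale is known, but arrays were centred differently. Intensities, and so signal over background, were not used here. The number of arrays limits the precision.

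Ratios were taken to log2 (1 ratio at or below 0 was left out), duplicate spots averaged, and each array centred on its median within each slide. The first and last 20 places of each grid of 360 spots carry no gene and were left out (3840 spots). Symbols came from the platform annotation (9866 clones with 1 symbol, 274 with several, 5220 with none). Of the 9866, 9760 matched RefSeq by gene ID. Clones of a gene were averaged.

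limma 3.58.1 (R 4.3.3) was fitted to all 18 arrays with condition and sample dye as terms, on clones with a value on the 4 arrays, and Benjamini-Hochberg adjusted p under 0.05 was the threshold. The dye term is the block: arrays of the same dye pair the conditions, since each condition has 1 array of each dye. The scripts were checked on simulated data, in which the noise of a clone had the same size on all arrays. The unequal spread of the real arrays was not simulated. The SAM step and the blank-spot filter of the methods were not run; SAM would treat duplicate spots as repeats. Named genes were the 12 each way with the largest smaller pair difference (none passed) among genes with at least 2 clones or duplicate spots within 1 log2 unit, every measured study and control gene, the 2 of smallest p in each of 29 lists, and the 3 each way of smallest p against Day 1 - LIF; genes outside this rule were named after their values were seen. Members, lists and rules were chosen with earlier results of these data known. Alternatives changed the centring, scaling, direction, dye term, arrays and clones used.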

Additional observations from a re-analysis of the deposited data

How the results depend on the processing

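The count of clones with an adjusted p under 0.05 was 0 in limma for Day 1 + LIF against Day 0 as deposited without centring, centred over both slides together, scaled to equal spread, quantile normalized, with the Cy3 arrays turned, without the dye term, with only the 4 arrays, with array weights, on clones with close duplicates or with values on all 18 arrays, on either slide alone, with a 2-fold limit and with the shared Cy5 profile removed. The last, and slide 2 alone for genes, lists and fold limits, were chosen after seeing the data. The same held for genes and for Day 1 + LIF against Day 1 - LIF. Against Day 0, leaving out the Day 0 Cy3 or the Day 1 + LIF Cy5 array kept the count at 0, and leaving out either of the others did not. Without the Day 0 Cy5 array (replicate 2) 1941 clones passed and without the Day 1 + LIF Cy3 array (replicate 1) 1273, so over the arrays left out the count ran from 0 to 1941 clones and from 0 to 1164 genes, and against Day 1 - LIF from 0 to 1096 clones. In those fits the wide array left alone in its group is assumed to vary like the other groups. Among the list genes the count ran from 0 to 197. The main fit, which pairs the arrays by the dye block, had 2361 clones at an unadjusted p under 0.05. The unpaired fit without that block had 823, and both had 0 after adjustment. Clones at least 2-fold apart in every spot numbered 401 with the Cy3 arrays turned (294 higher, 107 lower), 150 with equal spread and 107 on slide 2 alone, against 782; as deposited there were 1110 (956 higher, 154 lower), since without centring the median difference of all genes moved from -0.07 to 0.34.

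Of the 98 named genes 74 changed sign with the Cy3 arrays turned, 39 with equal spread, 23 with quantile normalization and 21 with the shared profile removed. Of the 29 list medians 26, 19, 15 and 15 did so, and the median of cytosolic ribosomal proteins kept its sign under all 13 alternatives run, from -1.28 to -0.02. It lay near 0, however, with the Cy3 arrays turned (-0.06) and with the shared profile removed (-0.02). Turned, the ribosomal genes with a slide 1 clone had a median of 0.45 and those measured on slide 2 only had -0.22. The causes were not tested.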
